A study of Homo sapiens with 2 samples.

Results

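FOXJ1 and the genes named for parts of motile cilia were compared between 2 RNA-seq libraries of HES2 cells, an established human embryonic stem cell line. The rule takes FOXJ1 and every gene of the authors' deposited table whose symbol starts like that of an axonemal dynein (DNAH, DNAI, DNAL), a dynein assembly factor, a cilia and flagella associated protein (CFAP), a radial spoke or tektin gene, or one of the broader families such as CCDC, TTC, WDR, LRRC, ARMC and IQC. It found 66 of the 2005 genes in that table. The knockdown library came from cells infected with a lentivirus against Tfcp2l1, and the scramble library from cells infected with the control lentivirus. Both groups were grown for 3 passages in basal medium with 10% KSR plus FGF2 and Activin A, each at 10 ng/ml. Each group had 1 library, so there is no spread between replicates and no test between the conditions. The labels do not give whether the infected cells were a clone or a pool.

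A motile cilium is built on an axoneme of microtubule doublets around a central pair. Rows of outer and inner dynein arms move the doublets against each other, radial spokes and the central apparatus regulate them, and the nexin-dynein regulatory complex links neighbouring doublets. Intraflagellar transport carries these parts into the growing cilium. FOXJ1, a forkhead transcription factor, switches on much of this gene set, and RFX factors bind X-box elements in many ciliary promoters. In the vertebrate embryo such cilia form at the node, where their beating sets the left-right axis, and later in multiciliated epithelia.

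The table holds only genes that the authors called, each at least 2-fold apart, with a false discovery rate of at most 0.000990, so the direction of the members is a description that nothing here tests. Levels are in FPKM, fragments scaled to gene length and library depth, and 0.01 FPKM is the lowest value given. Reads per gene were inferred from the level, the length and the p-value, on about 22690000 reads in the knockdown library and 23470000 in the scramble library. Ratios are of reads, knockdown over scramble, scaled by depth, and their exact (Clopper-Pearson) 95% intervals cover counting error only. TFCP2L1, the target of the shRNA, measured 0.33 FPKM in knockdown cells and 3.19 FPKM in scramble cells, a ratio of 0.103 (interval 0.0793 to 0.132). Of 10 markers of pluripotent cells on a list, 3 had a row and all 3 were lower in the knockdown library. Of all protein-coding genes in RefSeq, 4.06% were listed as lower. Among the 3 was SOX2, at 86.1 FPKM in knockdown cells and 180 FPKM in scramble cells, while POU5F1 and NANOG had no row.

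FOXJ1 (gene ID 2302) measured 29.9 FPKM in knockdown cells and 1.12 FPKM in scramble cells. About 1763 reads fell on it in the knockdown library and 68 in the scramble library, a ratio of 26.8 (interval 21.04 to 34.7). It was the highest of the 66 members in the knockdown library. In bulk RNA, more cells that carry a transcript and more of it per cell cannot be told apart, which holds for every value here.

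Of the 66 members, 58 were higher and 8 lower in the knockdown library, beside 54.1% higher and 45.9% lower among all rows of the table. The median log2 ratio, computed with a pseudocount of 0.1 FPKM, was 1.38 over the members and 1.01 over all rows. Genes near 0 were not called, so these medians depend on the share of higher genes and do not compare sizes of change. By role, 33 members are on lists of parts or assembly factors of the axoneme, and 4 are subunits of intraflagellar transport. The 28 others are on neither kind of list. They hold genes that share only a symbol pattern or a less certain link to cilia, but also CCDC96, a protein of the axoneme. All but 1 of the 33 axonemal members were higher, and their median log2 ratio was 1.54. The 4 transport members were also higher, at a median of 1.21. Of the 28 others, 21 were higher and 7 lower, with a median of 1.15. The order of these medians depends on the pseudocount, since with 1 FPKM they were 0.62 for axonemal, 0.81 for transport and 0.73 for other members, and in the authors' deposited table the axonemal median was 2.68. A level ratio of 4 or more, knockdown over scramble, was reached by 28 of the 66 members, 21 of them axonemal, beside 21.4% of all rows. A gene with few reads enters the table only at a large ratio. The axonemal members had a median of 68 reads against 273 for all rows, so the calling limit can raise their share and their medians. How much of the excess comes from that limit was not tested.

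**Figure D1:**
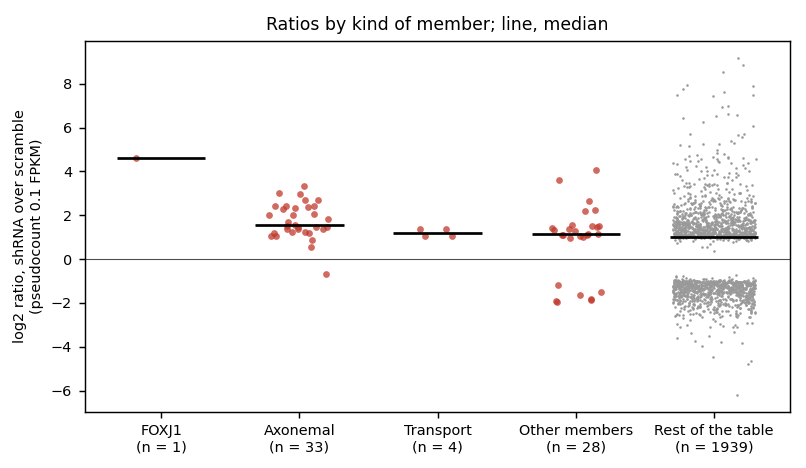
Log2 ratio (shRNA over scramble, pseudocount 0.1 FPKM) of FOXJ1, the 33 axonemal, 4 transport and 28 other members and the 1939 remaining rows of the table; each point is a gene and each line a median. FOXJ1 lies at 4.62, all but 1 of the axonemal points lie above 0, and the rest of the table splits into a higher and a lower band because genes nearer to 0 were not called.

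The axonemal members were low in both libraries. Their median was 0.67 FPKM in knockdown cells and 0.12 FPKM in scramble cells. In the knockdown library 20 of the 33 were under 1 FPKM, and in the scramble library 30 were. Their reads over both libraries numbered 12 to 746, with a median of 68, against a median of 273 for all rows. Together they held 3170 reads in the knockdown library and 802 in the scramble library.

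**Figure D2:**
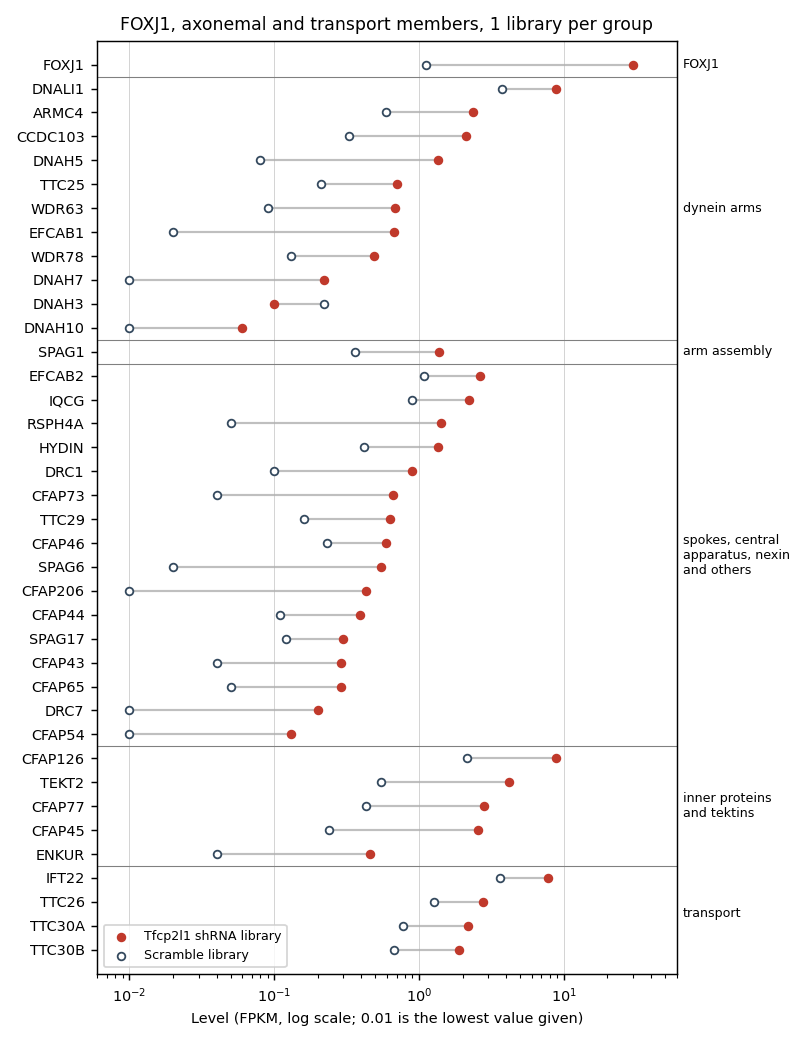
Level in FPKM (log axis) of FOXJ1 and of the axonemal and transport members in the Tfcp2l1 shRNA library (filled) and the scramble library (open), grouped by role, with CCDC103 shown among the dynein arms. The filled point lies to the right for every gene drawn except DNAH3, and most scramble levels of axonemal genes lie under 1 FPKM.

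Among dynein arm genes, 27 on the list, 11 had a row, 10 of them higher (37.0% of the list) and 1 lower. Of all protein-coding genes in RefSeq, 4.79% were listed as higher and 4.06% as lower. DNAH5, the outer arm heavy chain often mutated in primary ciliary dyskinesia, measured 1.36 FPKM in knockdown cells and 0.08 FPKM in scramble cells. That is 478 reads against 28 in the scramble library, a ratio of 17.7 (interval 12.1 to 26.9). Every gene of the table was called on these same 2 libraries, so an interval away from 1 follows from that selection. All 1084 higher rows have an interval above 1. DNAH7, an inner arm heavy chain, measured 0.22 FPKM in knockdown cells and 0.01 FPKM in scramble cells, on 61 and 3 reads, a ratio of 21.03 (interval 6.86 to 105). DNAH10, a further inner arm heavy chain, measured 0.06 FPKM in knockdown cells and 0.01 FPKM in scramble cells, on 20 and 2 reads, a ratio of 10.3 with an interval of 2.51 to 91.3. DNAH3, also an inner arm heavy chain, was the axonemal member that was lower, at 0.10 FPKM in knockdown cells and 0.22 FPKM in scramble cells. It had 27 knockdown reads and 65 scramble reads, a ratio of 0.430 (interval 0.264 to 0.683). The listed heavy chains therefore did not all differ in 1 direction.

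The other arm genes were higher. DNALI1, a light intermediate chain of inner arms, had 8.79 FPKM in knockdown cells and 3.75 FPKM in scramble cells, the highest scramble level of the axonemal members, with a ratio of 2.35 (interval 2.01 to 2.76). The intermediate chains WDR63 and WDR78 measured 0.68 and 0.49 FPKM in knockdown cells and 0.09 and 0.13 FPKM in scramble cells. ARMC4 and TTC25, which dock outer arms on the doublet, measured 2.37 and 0.71 FPKM in knockdown cells and 0.59 and 0.21 FPKM in scramble cells. EFCAB1, a calcium-binding protein of the same docking complex, measured 0.67 FPKM in knockdown cells and 0.02 FPKM in scramble cells, on 32 reads and 1 read, so its ratio of 33.1 has an interval of 5.53 to 1348. Docking genes thus spanned small and large ratios, and the large one rests on a single scramble read.

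Dynein arms are put together in the cytoplasm by dedicated factors. Of 14 on the list, 2 had a row, both higher (14.3%, beside 4.79% of all protein-coding genes in RefSeq). SPAG1, an assembly factor, measured 1.37 FPKM in knockdown cells and 0.36 FPKM in scramble cells, a ratio of 3.84 (interval 2.56 to 5.90). CCDC103, which helps to attach the arms and is counted in both lists, measured 2.12 FPKM in knockdown cells and 0.33 FPKM in scramble cells. Its level is uncertain, because 100% of the 31-base words of its longest transcript also occur in a transcript annotated to FAM187A.

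Of 55 genes of the radial spokes, the central apparatus, the nexin-dynein regulatory complex and other axonemal complexes, 16 had a row and all 16 were higher. That is 29.1% of the list, beside 4.79% of all protein-coding genes in RefSeq listed as higher. RSPH4A, a radial spoke head protein, measured 1.42 FPKM in knockdown cells and 0.05 FPKM in scramble cells, on 90 and 3 reads, a ratio of 31.03 (interval 10.3 to 153). SPAG6, a protein of the central apparatus, measured 0.55 FPKM in knockdown cells and 0.02 FPKM in scramble cells, on 32 reads and 1 read, a ratio of 33.1 (interval 5.53 to 1348). Both were almost without reads in the scramble library. Further genes of the central apparatus were also higher. SPAG17 measured 0.30 FPKM in knockdown cells and 0.12 FPKM in scramble cells, a ratio of 2.48 (interval 1.45 to 4.42). CFAP46 measured 0.59 FPKM in knockdown cells and 0.23 FPKM in scramble cells. CFAP54 measured 0.13 FPKM in knockdown cells and was listed at 0.01 FPKM in scramble cells, with 29 knockdown reads and no scramble read. Set against a floor of 3 reads per library, that is 10.0-fold higher, and the interval of its ratio runs from 7.62 upward. Central apparatus genes thus ranged from a few to many times their scramble level. HYDIN, a large protein of the central pair, measured 1.35 FPKM in knockdown cells and 0.42 FPKM in scramble cells, but 79.3% of its words also occur in another gene, most of them in its copy HYDIN2.

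The nexin-dynein regulatory complex was represented by 4 subunits. DRC1 measured 0.90 FPKM in knockdown cells and 0.10 FPKM in scramble cells, a ratio of 8.62 (interval 3.69 to 24.6). DRC7 measured 0.20 FPKM in knockdown cells, with 12 knockdown reads and no scramble read. It was 4.14-fold higher against the floor, and the interval of its ratio runs from 2.87 upward. IQCG and EFCAB2, known also as subunits of this complex, were closer to their scramble levels, IQCG with a ratio of 2.49 (interval 1.70 to 3.72) and EFCAB2 with a ratio of 2.44 (interval 1.78 to 3.36). The intervals of DRC1 and IQCG overlap only slightly, between 3.69 and 3.72. CFAP43 and CFAP44, which tether an inner arm to the doublet in Tetrahymena and Chlamydomonas, measured 0.29 and 0.39 FPKM in knockdown cells and 0.04 and 0.11 FPKM in scramble cells. CFAP73, part of an adaptor for the same arm in Chlamydomonas, measured 0.66 FPKM in knockdown cells and 0.04 FPKM in scramble cells, on 22 reads and 1 read. CFAP206, found at the base of a radial spoke in Tetrahymena, measured 0.43 FPKM in knockdown cells, with 21 knockdown reads and no scramble read. It was 7.24-fold higher against the floor, and the interval of its ratio runs from 5.39 upward. CFAP65 (ratio 6.21) and TTC29 (ratio 3.88), both needed for sperm flagella, complete the group. The levels of CFAP206, CFAP44, CFAP73 and EFCAB2 are uncertain, since other genes share 61.2%, 35.8%, 32.4% and 26.2% of their words.

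Of 19 genes for tektins and proteins on the inside of the doublet microtubules, 5 had a row and all 5 were higher. That is 26.3% of the list, beside 4.79% of all protein-coding genes in RefSeq listed as higher. TEKT2, a tektin, measured 4.16 FPKM in knockdown cells and 0.55 FPKM in scramble cells, a ratio of 7.71 (interval 4.92 to 12.6). CFAP45 measured 2.56 FPKM in knockdown cells and 0.24 FPKM in scramble cells, a ratio of 10.7 (interval 5.56 to 22.9). CFAP77 measured 2.79 FPKM in knockdown cells and 0.43 FPKM in scramble cells. These genes combine a ratio above 6 with knockdown levels above 2 FPKM. ENKUR had a lower level than these, at 0.46 FPKM in knockdown cells and 0.04 FPKM in scramble cells, on 35 and 3 reads. CFAP126, known as Flattop, measured 8.89 FPKM in knockdown cells and 2.16 FPKM in scramble cells, but 85.2% of its words also occur in another gene, most of them in SDHC.

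**Figure D3:**
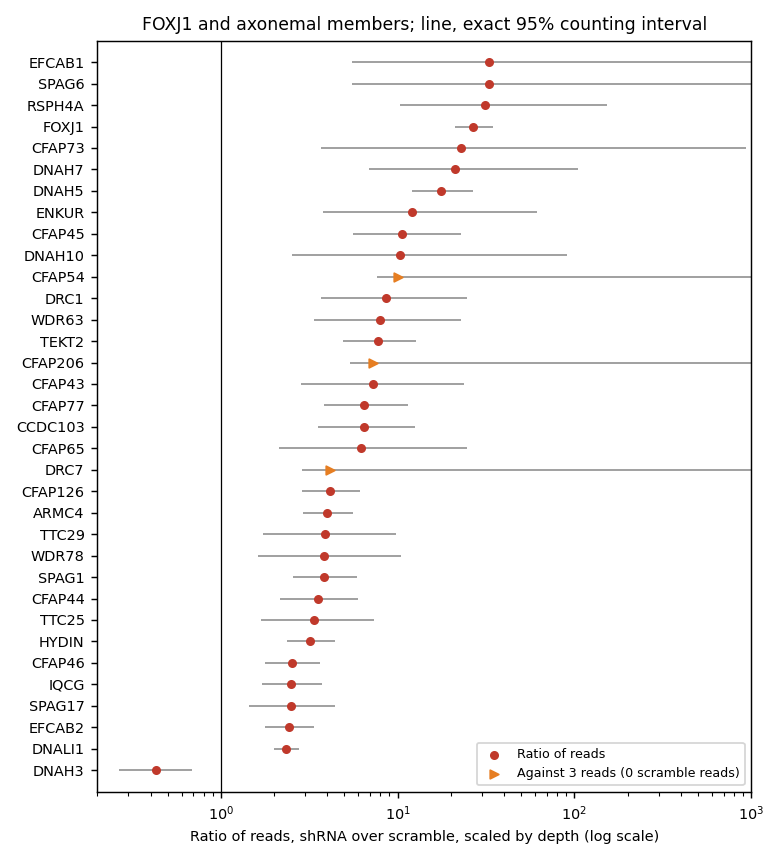
Ratio of reads, shRNA over scramble, scaled by depth (log axis), for FOXJ1 and the 33 axonemal members, with exact 95% counting intervals that are cut at the edge of the axis where they run past it. Triangles give the fold against 3 reads for CFAP54, CFAP206 and DRC7, which had no scramble read, and DNAH3 alone has its interval below 1.

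The 4 listed of 25 intraflagellar transport and dynein-2 genes are all subunits of the B complex, which moves cargo toward the ciliary tip. IFT22 measured 7.73 FPKM in knockdown cells and 3.65 FPKM in scramble cells, a ratio of 2.12 (interval 1.79 to 2.52). TTC26 measured 2.75 FPKM in knockdown cells and 1.27 FPKM in scramble cells, a ratio of 2.16 (interval 1.74 to 2.68). TTC30A measured 2.17 FPKM in knockdown cells and 0.78 FPKM in scramble cells, with a ratio of 2.79 (interval 2.17 to 3.63). The transport genes had higher scramble levels than most axonemal genes, 0.67 to 3.65 FPKM, and ratios of 2.12 to 2.84. TTC30B (1.88 FPKM in knockdown cells and 0.67 FPKM in scramble cells) is uncertain, since other genes share 23.8% of its words, most of them TTC30A.

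Among the 28 other members, ARMC3, CCDC81 and CCDC92 had the highest ratios. ARMC3 measured 0.65 FPKM in knockdown cells and 0.02 FPKM in scramble cells, on 41 reads and 1 read, a ratio of 42.4 with an interval of 7.20 to 1715. CCDC92, a protein of centrioles, measured 9.18 FPKM in knockdown cells and 0.45 FPKM in scramble cells, a ratio of 20.7 (interval 13.4 to 33.8). CCDC81 measured 2.73 FPKM in knockdown cells and 0.13 FPKM in scramble cells, a ratio of 22.8 (interval 7.45 to 113). Their scramble reads numbered 21 or fewer. CCDC96, a coiled-coil protein of the axoneme that is on none of the axonemal lists, measured 0.55 FPKM in knockdown cells and 0.04 FPKM in scramble cells. LRRC10B measured 3.16 FPKM in knockdown cells and 0.59 FPKM in scramble cells. LRRC56, linked to the transport of dynein arms, measured 1.28 FPKM in knockdown cells and 0.39 FPKM in scramble cells. Then came a run of genes near the limit of the table, with ratios between 2.03 and 3.11, among them IQCE, a protein of the ciliary base (3.6 FPKM in knockdown cells and 1.33 FPKM in scramble cells), and CCDC57, a centriolar protein (3.02 FPKM in knockdown cells and 1.06 FPKM in scramble cells). In the same run, CCDC141 measured 2.30 FPKM in knockdown cells and 0.75 FPKM in scramble cells. CCDC167 had the highest knockdown level of the 28, with 19.2 FPKM in knockdown cells and 6.98 FPKM in scramble cells. The members closest to the authors' limit of 2-fold were WDR81, with a log2 ratio of 1.02 in the authors' deposited table, and CCDC157, with 1.03, and genes just outside that limit are not analysed here. The levels of LRRC37A3, WDR73 and CCDC157 are uncertain, since other genes share 79.7%, 87.2% and 61.9% of their words.

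Several of the 7 lower members of this group encode proteins with no known axonemal role. CCDC80, a secreted matrix protein, measured 1.36 FPKM in knockdown cells and 5.01 FPKM in scramble cells, a ratio of 0.272 (interval 0.224 to 0.328). CCDC3, also secreted, measured 1.27 FPKM in knockdown cells and 4.12 FPKM in scramble cells. LRRC32, which anchors latent TGF-beta at the cell surface, measured 0.65 FPKM in knockdown cells and 1.61 FPKM in scramble cells. These are surface or secreted proteins that the symbol pattern takes along. WDR46, a nucleolar protein, measured 1.64 FPKM in knockdown cells and 4.90 FPKM in scramble cells. TTC39C measured 2.56 FPKM in knockdown cells and 9.56 FPKM in scramble cells, the highest scramble level of all members. CCDC184 (0.27 FPKM in knockdown cells and 1.33 FPKM in scramble cells) and CCDC172 (0.48 FPKM in knockdown cells and 2.11 FPKM in scramble cells) had the lowest ratios, 0.201 and 0.230. No role is given here for TTC39C, CCDC184 and CCDC172, nor for many of the higher others. Whether direction goes with a ciliary role in this group was not tested.

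Many of the members are at levels where a rule of size is strict. Of the 66, 42 reached 1 FPKM in either library. With the pseudocount of 0.1 FPKM, 33 of these lay 2-fold or more higher in the knockdown library, and 7 lay 2-fold or more lower. Among all 1587 rows at that level, 51.6% were higher and 44.7% lower by the same rule. Of the 33 axonemal members, 13 passed this filter and 20 did not, and all 13 were at least 2-fold higher. A filter of this kind keeps a gene that is low in 1 library through its level in the other, so these counts support no direction. The counting interval lay wholly above 2 for 39 of the 66 members, 25 of them axonemal, and wholly below 0.5 for 6, beside 37.5% and 26.7% of all rows.

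Genes of the same symbol families with no row cannot be read as unchanged. Of 484 protein-coding genes in RefSeq whose current symbol matches the rule, 60 were listed as higher (12.4%) and 8 as lower (1.65%). Of all 20052 protein-coding genes in RefSeq, 4.79% were listed as higher and 4.06% as lower, and of the 18489 genes that the authors tested, as inferred from their p-values and rates, 5.86% and 4.98%. Of the 114 genes on the axonemal lists, 32 were listed as higher (28.1%) and 1 as lower. These shares are descriptive, because the group was chosen with the table known.

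The promoters were searched for X-box letters. RefSeq windows on GRCh38.p14, from 250 bases before to 50 bases after a transcript start, were at hand for 49 of the 66 members. The short site searched was GTTGCC on either strand. The full X-box searched was an inverted repeat of these letters around 2 bases, with the fourth letter of each arm left free, so some of its forms contain the short site. The short site stood in at least 1 window of 26 of these 49 members (53.1%), and of 3983 of 27305 genes with a window (14.6%). Among genes with a single window it stood in 18 of 37 members (48.6%) and 12.3% of all genes. The full element was in 4 members (8.16%) and 0.593% of all genes, and the forkhead letters TGTTTAC were in 3 members (6.12%) and 4.19% of all genes. The members that hold the full element were CFAP45, ENKUR, TTC30A and LRRC49.

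The position of the short site was then described for the members with a window. It lay within the 50 bases before a start in 11 of 23 axonemal members with a window (47.8%), in 2 of 3 transport members, and in 2 of 23 other members (8.70%). The same was so for 2.89% of all genes, 3.92% of the higher rows outside the members and 3.09% of the lower ones. Within 50 bases on either side of a start, it lay in 12 of 23 axonemal members (52.2%), 7 of 23 other members (30.4%) and 5.56% of all genes. The gap between axonemal and other members therefore depends on the side counted, since CCDC57, CCDC96, CCDC157, CCDC160 and CCDC170 hold the site at or just after the start. Both limits were chosen after the positions were seen, and the difference was not tested. A match is a run of letters, not a bound site. Each line gives 80 bases upstream of a start on GRCh38.p14, from RefSeq, in members with a short site or full element, on the strand of the gene, 5′ to 3′, with short sites and full elements in capitals.
CFAP45 (chr1:159900166-159900245, minus strand): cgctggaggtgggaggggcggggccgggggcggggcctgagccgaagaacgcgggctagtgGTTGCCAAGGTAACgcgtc
ENKUR (chr10:25016159-25016238, minus strand): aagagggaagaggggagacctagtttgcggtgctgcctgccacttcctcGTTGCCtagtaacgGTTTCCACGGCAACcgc
DRC1 (chr2:26401840-26401919, plus strand): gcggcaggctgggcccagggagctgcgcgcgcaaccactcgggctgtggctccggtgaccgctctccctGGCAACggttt
SPAG6 (chr10:22345416-22345495, plus strand): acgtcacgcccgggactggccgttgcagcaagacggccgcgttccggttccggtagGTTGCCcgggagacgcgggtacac
RSPH4A (chr6:116616392-116616471, plus strand): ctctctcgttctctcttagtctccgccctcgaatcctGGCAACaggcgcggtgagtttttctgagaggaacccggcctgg
CFAP126 (chr1:161367877-161367956, minus strand): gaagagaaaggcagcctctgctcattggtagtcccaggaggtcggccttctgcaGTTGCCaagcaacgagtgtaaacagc
TTC30A (chr2:177618743-177618822, minus strand): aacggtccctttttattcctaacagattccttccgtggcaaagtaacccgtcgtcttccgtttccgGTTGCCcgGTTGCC
CFAP45 and ENKUR are shown because they hold the full element, which ends 5 and 3 bases before the start. DRC1, SPAG6 and RSPH4A are regulatory complex, central apparatus and radial spoke genes with ratios of 8.62, 33.1 and 31.03. The ratios of SPAG6 and RSPH4A rest on 1 and 3 scramble reads. Members with smaller ratios that are not shown also hold the short site within the 50 bases before a start, such as IQCG (ratio 2.49) and CFAP46 (ratio 2.53). CFAP126 holds a forkhead match as well, and TTC30A has 2 short sites at the end of the stretch shown, with its full element just after the start. The stretches end at the start, except that of RSPH4A, whose short site lies 44 bases before it.

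**Figure D4:**
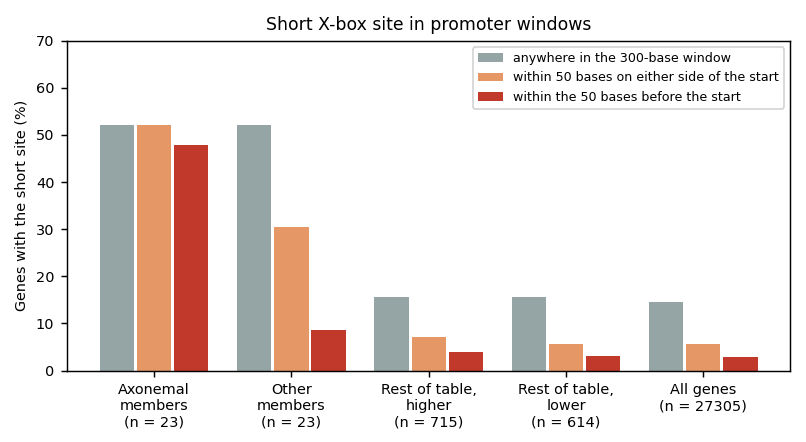
Percent of genes with the short X-box site anywhere in the 300-base promoter window (grey), within 50 bases on either side of a start (orange) or within the 50 bases before a start (red), for axonemal members (n = 23), other members (n = 23), the remaining rows of the table by direction (n = 715 and 614) and all genes with a window (n = 27305). The grey bars are equal for the axonemal and the other members at 52.2%, the orange bars are 52.2% and 30.4%, and the red bars are 47.8% and 8.70%, with both limits chosen after the positions were seen.

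Regulators of motile ciliogenesis were followed on a list of 18, of which 4, FOXJ1 included, had a row and all 4 were higher. That is 22.2% of the list, beside 4.79% of all protein-coding genes in RefSeq listed as higher. The lists were chosen with earlier results of these data known, so such shares are descriptive. NOTO, a homeobox factor of the node that lies upstream of Foxj1 in the mouse, measured 2.85 FPKM in knockdown cells and 0.04 FPKM in scramble cells, on 89 reads and 1 read, a ratio of 92.1 (interval 16.1 to 3676). CCNO, a cyclin of multiciliated cells, measured 0.56 FPKM in knockdown cells and 0.06 FPKM in scramble cells, on 18 and 2 reads. E2F5 measured 18.9 FPKM in knockdown cells and 9.13 FPKM in scramble cells. None of the RFX genes on the list, nor MCIDAS, GMNC, MYB or TP73, had a row.

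Of 20 node and left-right genes, 7 had a row and all 7 were higher (35.0%, beside 4.79% of all protein-coding genes in RefSeq). PKD1L1, a polycystin that acts in the sensing of flow at the node, measured 2.83 FPKM in knockdown cells and 0.10 FPKM in scramble cells, a ratio of 28.5 (interval 18.4 to 46.3). NODAL, the signal of the left side, measured 64.4 FPKM in knockdown cells and 22.4 FPKM in scramble cells. CFC1, its co-receptor, had 18 knockdown reads and 3 scramble reads. Of 16 hedgehog pathway genes, 2 had a row and both were higher (12.5%, beside the same 4.79%), too few to describe the pathway. SHH, counted among the node genes too, measured 6.11 FPKM in knockdown cells and 0.02 FPKM in scramble cells. GPR161 measured 5.68 FPKM in knockdown cells and 2.65 FPKM in scramble cells. FOXA2 (56.5 FPKM in knockdown cells and 0.05 FPKM in scramble cells) and T (32.1 FPKM in knockdown cells and 0.23 FPKM in scramble cells) are node and streak genes as well, and their part in the ciliary values was not tested.

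Ciliary genes outside the symbol rule numbered 61 on the list. Of these, 10 had a row, 9 higher (14.8% of the list, beside 4.79% of all protein-coding genes in RefSeq) and 1 lower. TPPP3, a tubulin polymerization factor, measured 5.76 FPKM in knockdown cells and 0.55 FPKM in scramble cells, a ratio of 10.4 (interval 5.89 to 20.1). NME5, a radial spoke protein, measured 1.27 FPKM in knockdown cells and 0.18 FPKM in scramble cells. ZMYND10, a dynein assembly factor, measured 0.84 FPKM in knockdown cells and 0.22 FPKM in scramble cells. These genes act in motile cilia, and genes found in primary cilia as well were also listed, with BBS1 at 10.1 FPKM in knockdown cells and 5 FPKM in scramble cells and TCTN2 at 6.13 FPKM in knockdown cells and 2.74 FPKM in scramble cells. OSCP1 and C9orf24 measured 4.15 and 3.64 FPKM in knockdown cells and 1.62 and 1.16 FPKM in scramble cells. TUBA1A, an alpha tubulin of many cells, measured 294 FPKM in knockdown cells and 127 FPKM in scramble cells. KIF17, a kinesin of cilia and dendrites, was the lower one, at 2.21 FPKM in knockdown cells and 6.08 FPKM in scramble cells.

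**Figure D5:**
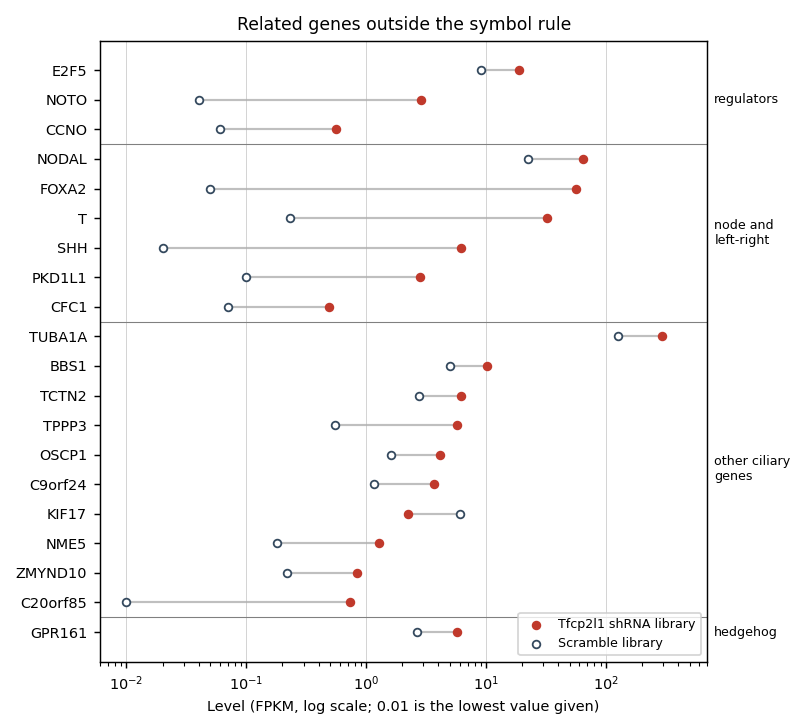
Level in FPKM (log axis) of listed regulators, node and left-right genes, other ciliary genes and hedgehog genes in the Tfcp2l1 shRNA library (filled) and the scramble library (open); NOTO and SHH are drawn once. Every gene drawn is higher in the shRNA library except KIF17, which is at 2.21 FPKM there and 6.08 FPKM in the scramble library.

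Markers of multiciliated cells were mostly without a row. Of 13 on the list, CCNO, C20orf85 and TPPP3 had one and were higher (23.1%, beside 4.79% of all protein-coding genes in RefSeq). Their levels summed to 7.05 FPKM in knockdown cells and 0.62 FPKM in scramble cells, of which TPPP3 alone held 5.76 and 0.55 FPKM. CCNO had 18 knockdown reads and 2 scramble reads, and C20orf85 had 12 knockdown reads and no scramble read. MCIDAS, DEUP1, CDC20B, SNTN, SCGB1A1, RSPH1, DNAI1, PIFO, CAPS and TUBB4B had no row. What part of the values of the axonemal members came from such cells was not tested.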

How the data were processed

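Total RNA (1 ug per library) from HES2 cells of 2 groups, 1 library each, was made into libraries, and the labels' protocols name the BGISEQ-500 platform. The submitters' processing notes name the build hg19 and Bowtie 0.12.2, while for the counter, test and strand setting nothing is given in the sources used here. The authors' deposited table of 2005 genes gives a level per library, read here as FPKM from the values because the header says expression only, and RPKM cannot be told apart from FPKM. It also gives the authors' log2 ratio (log2 of knockdown over scramble), and the authors' p-value and false discovery rate for each gene, with a gene length. The ratios of p-value to rate give 18489 genes tested.

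Whole reads were inferred as pairs that fit both FPKM values and the Audic-Claverie Poisson comparison (doubled tail beyond the observed count) within 0.0002 on the natural log of p. Such a pair was found for 1394 of 1926 genes with a p-value above 0 (72.4%) and for 47 of 66 members. For the other 19, FOXJ1 among them, reads were estimated from the FPKM. The depth ratio was 1.034 (scramble over knockdown) and the length offset 66 bases. Without molecular identifiers, reads cannot be taken as independent molecules, so intervals and the floor of 3 reads cover counting error only. Log2 ratios use a pseudocount of 0.1 FPKM, which understates the change of low genes.

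Sequence sharing is the percent of 31-base words of a member's longest GENCODE 29 transcript found, on either strand, in a transcript of another gene, and members at 20% or more are called uncertain. Gene IDs matched RefSeq for 1856 of the 2005 rows. List symbols were matched to RefSeq by symbol or synonym, and 4 genes of the further lists are not reported here and were left out of those lists' counts.

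The members and lists were chosen with earlier results of these data known. CFAP77, CFAP126, CFAP141, CFAP161 and ENKUR were moved between axonemal lists, and 1 list was renamed, after their values were seen, which leaves the 33 axonemal members as they were. The rule for named genes takes FOXJ1, TFCP2L1, the axonemal and transport members, the 8 highest and 8 lowest other members at 1 FPKM or more, and up to 5 of the highest and lowest genes of each further list. Other names, such as ARMC3, CCDC96 and the pairs nearest to the limit, were chosen after their values were seen. No test between conditions was made, and the alternatives were other pseudocounts, filters and the counting interval. Python 3.11.15, numpy 2.4.6, scipy 1.17.1, pandas 2.3.3 and matplotlib 3.10.9 were used.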

Additional observations from a re-analysis of the deposited data

How the results depend on the processing

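The alternatives rewrite the same 2 levels per gene, so none of them could turn a direction, and they are no check of it. With a pseudocount of 1 FPKM the log2 ratio of 57 of the 66 members left its counting interval, the log2 ratio of FOXJ1 was 3.86, the median was 0.72 over all members, 0.62 over axonemal, 0.81 over transport and 0.73 over other members (0.38 over all rows), which reverses the order of axonemal and other members, and 15 members, of which no transport gene (0) and 5 others, were at least 2-fold higher. By the log2 column of the authors' deposited table, medians were 1.79, 2.68, 1.30 and 1.29 in the same order, and over members at 1 FPKM or more they were 1.34 for all, 1.99 for axonemal and 1.13 for other members. Without the filter 54 members and 30 axonemal members were at least 2-fold higher, and with a filter of 0.5 FPKM 21 axonemal members were. Among all 2005 rows, 1020 were at least 2-fold higher without the filter and 934 with the filter of 0.5 FPKM. With counting intervals wholly above 2 at 1 FPKM or more, 1 transport and 9 other members were higher. Of the 1587 rows at 1 FPKM or more, 591 were higher by that interval, and 546 were at least 2-fold higher with the pseudocount of 1 FPKM. The filter therefore sets how many axonemal members are counted. No paired analysis was possible because each group had 1 library, and no library could be left out. Ratios on 0 to 3 scramble reads have wide intervals, and the depth limits those genes.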

Other observations

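Further genes of the table have been renamed since, and 5 of them now carry a symbol that matches the rule. All 5 were higher in the knockdown library, beside 54.1% of all rows. C1orf194, now CFAP276, measured 2.27 FPKM in knockdown cells and 0.19 FPKM in scramble cells, on 23 and 2 reads, a ratio of 11.9 (interval 2.94 to 104). KIAA1683, now IQCN, had 28 knockdown reads and 1 scramble read. C9orf135, now CFAP95, measured 20.6 FPKM in knockdown cells and 7.64 FPKM in scramble cells, a ratio of 2.70 (interval 2.19 to 3.34). C5orf49, now CFAP90, measured 0.85 FPKM in knockdown cells and 0.29 FPKM in scramble cells, and C21orf2, now CFAP410, at 7.32 FPKM in knockdown cells and 3.18 FPKM in scramble cells.

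The gene ontology terms printed in the authors' deposited table cover few of the members, and 30 of the 66 have none. The term axoneme is given to 12 rows, 9 of them members, of which 8 were higher, and of the 3 other rows 2 were higher and 1 lower. Of 17 rows outside the members with a term that names a cilium, an axoneme or a flagellum, 9 were higher and 8 lower. For these 17 the split was close to that of all rows of the table, 54.1% higher and 45.9% lower. TTLL10 measured 0.43 FPKM in knockdown cells and 0.02 FPKM in scramble cells. MAPT, a neuronal microtubule protein, measured 0.37 FPKM in knockdown cells and 2.50 FPKM in scramble cells, and CABYR, a calcium-binding protein of the sperm tail, at 6.99 FPKM in knockdown cells and 17.4 FPKM in scramble cells.

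Of the words of the DNAH10 transcript, 11.8% also occur in another gene, most of them in CCDC92, which had 420 knockdown reads and 21 scramble reads against 20 and 2 for DNAH10. Whether reads of one were counted for the other was not tested.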
